A study of Drosophila melanogaster with 4 samples.

Results

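The 10 genes described here act in meiotic chromosome cohesion, synapsis, recombination and the control of meiotic divisions in Drosophila melanogaster: mtrm, Marf1, ord, solo, sunn, c(2)M, c(3)G, mei-W68, mei-P22 and mei-218. They were chosen by FlyBase symbol and are 10 of the 17773 genes listed in each file. RNA came from adult female ovaries after 20 days at 29 °C. The tumor genotype carried tj-GAL4 and tubulinGal80ts together with UAS-aPKCΔN and UAS-RasV12, and the control genotype carried tj-GAL4 and tubulinGal80ts alone. The tj-GAL4 driver is active in somatic follicle cells and not in the germline, so the transgenes are not driven in the cells that carry out meiosis. Control tissue was limited to follicles before yolk uptake, tumor tissue was not, and both tissues were protease-treated and passed through a filter that favours epithelial follicle cells. Each genotype had 2 libraries, which the series text calls biological replicates. Library totals were 47512735 and 42739528 for tumor 1 and tumor 2, against 41248098 and 50971937 for control 1 and control 2.

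In the Drosophila ovary meiosis begins in the germline cysts of the germarium, where sister chromatids are held by cohesion proteins and homologous chromosomes are joined by the synaptonemal complex. Double-strand breaks made there are repaired into crossovers, and only the oocyte goes on with meiosis while its sister cells become nurse cells. Follicle cells, which surround each cyst, do not enter meiosis. In bulk RNA fewer cells of a type and less RNA per cell cannot be told apart.

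What a value stands for differs among the 10 genes. Reads were assigned to 1 target per gene, and for 99.3% of the annotated genes the deposited target length equals the annotated gene span, introns included, plus 4000 bases, or 2000 on each side. All 10 members had such a target. The share of exon sequence lying outside every other gene's target was 100% for Marf1 and 61.8% for ord, and under 1% for the other 8 genes. Reads from those 8 genes could therefore be given to a neighbour's target as well as to their own. Levels are given as estimated counts and as CPM, the count scaled by its library's total. Each gene is described by its own estimated count and by a locus sum, the total over all targets that hold any of its exons. A locus sum holds the neighbours' reads too, so it is not a cleaner measure of the member. Division of reads among targets was not tested as a cause of any value below.

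**Figure D1:**
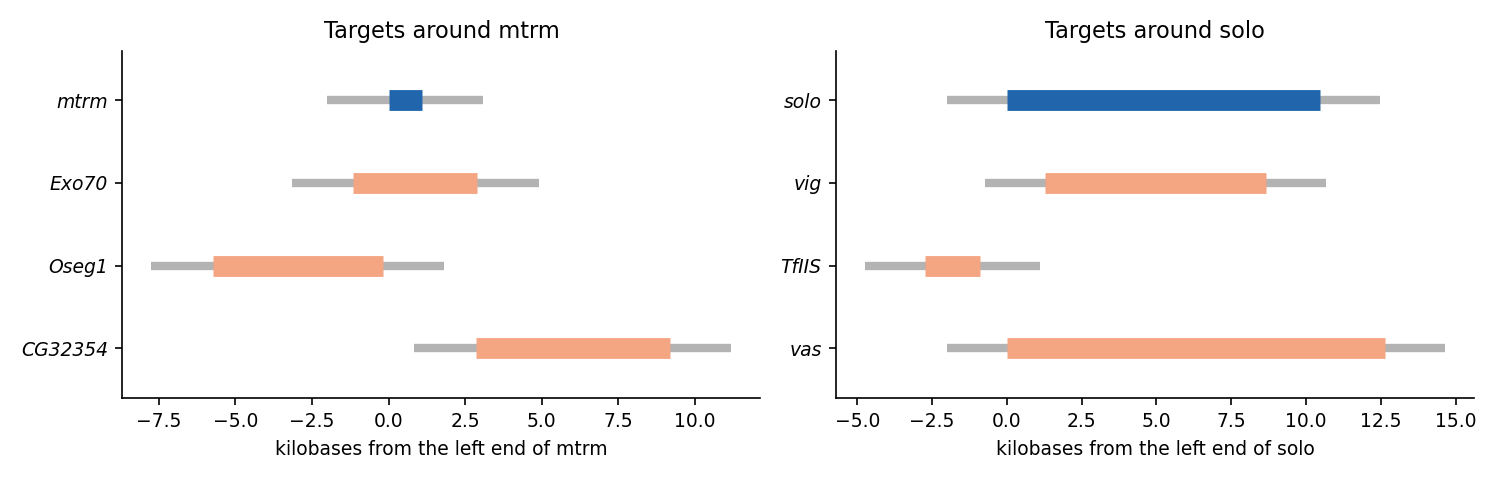
Position of each gene (thick bar, blue for the named member and orange for its neighbours) and of its quantification target (thin grey bar) around mtrm and around solo, in kilobases from the left end of the named gene. The mtrm span lies wholly inside the targets of Exo70 and Oseg1, and the solo span inside those of vig and vas.

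Of the 10 genes, 6 passed the low-count filter, sunn did not, and c(3)G, mei-W68 and mei-P22 were listed at 0 in every library. Among protein-coding genes 22.6% were listed at 0 in all 4 libraries, so a 0 here is common. In edgeR's quasi-likelihood test 5 of the 6 tested members were lower in tumor and none was higher at an adjusted p under 0.05. Of all 9402 tested genes 21.2% were lower and 23.4% higher, so 44.6% changed. The calls of mtrm and ord belong to genes that passed the filter through control alone and so had to differ. The same limit holds below for every gene listed at 0, or too low to pass the filter, in 1 of the groups. The median log2 fold change was -3.44 over the 6 tested members, mtrm and ord included, and 0.02 over all tested genes. Higher genes were 52.5% of all calls, 83.1% under scaling to ribosomal protein genes and 65.96 to 66.85% on the TPM scale.

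**Figure D2:**
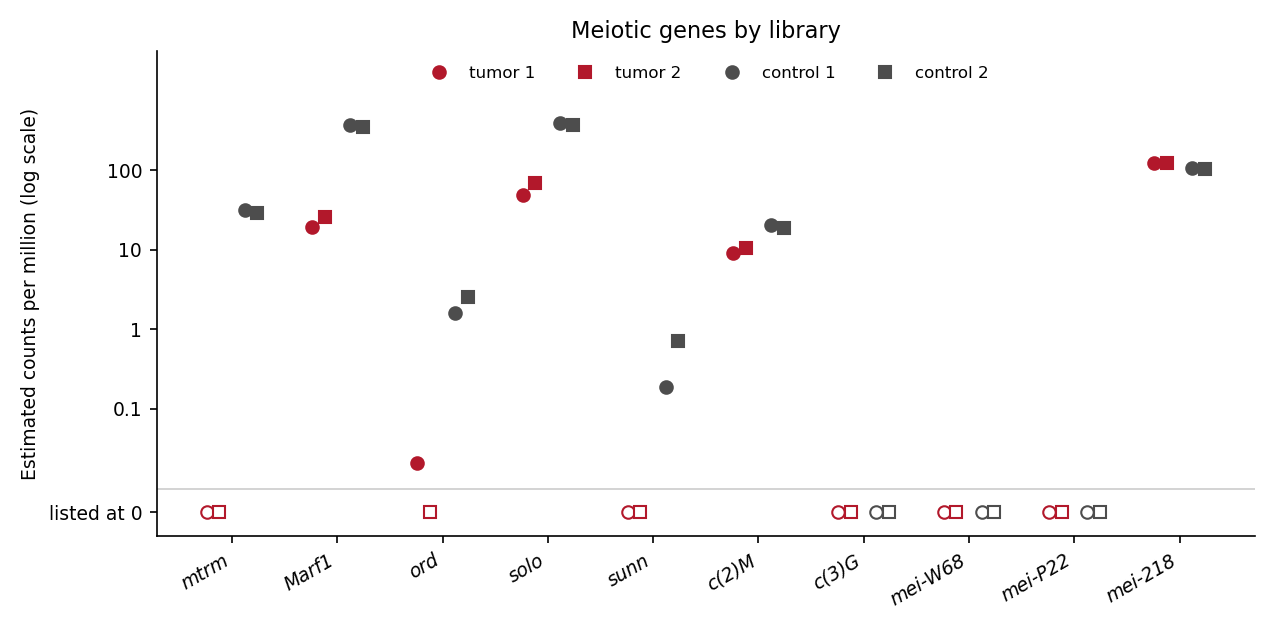
CPM of each of the 10 genes in each library, on a log scale with genes listed at 0 at the bottom (open symbols). Circles are replicate 1 and squares replicate 2, tumor in red and control in grey. Marf1 and solo show wide gaps between the groups, while mei-218 sits at 122.5 and 124.6 in tumor and at 104.9 and 104.7 in control.

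The meiotic regulators were mtrm and Marf1. Marf1 (FBgn0039972, BDGP6.54 chromosome 2L, 22308755 to 22368796, plus strand) encodes a protein with RNA-binding LOTUS domains that limits maternal mRNAs such as nanos in oocytes. Its estimated counts were 916 and 1113 in tumor 1 and tumor 2, against 15045 and 17866 in control 1 and control 2. The groups did not overlap and lay far apart beside the differences between replicates. Marf1 averaged 22.7 ± 4.78 CPM in tumor and 358 ± 10.1 in control (SD, n = 2 libraries each). The log2 fold change was -4.08 ± 0.17 (SE of the fit), or 16.9-fold lower in tumor (adjusted p = 0.0012, edgeR). No other target holds a Marf1 exon, so its locus sum is its own count.

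The Marf1 target is long and lies in a region rich in repeats. Exons make up 8.38% of its 64042 bases, and 47 annotated transposable elements cover 34475 bases, or 53.8%. Reads from such copies can enter its count. Among 33 tested genes with at least 50% of the target in transposable elements, a limit chosen after the values were seen, 14 were higher and 6 lower, with a median log2 fold change of 0.55. Marf1 itself is among the 6, which are 18.2% of the 33. Of all 9334 tested genes with an annotated target, 2179 were higher and 1981, or 21.2%, lower, with a median of 0.02. The part of repeat reads in the Marf1 fall was not tested. The pseudogene CR43359 inside the Marf1 span was listed at 0 in all libraries.

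The gene mtrm (FBgn0010431, 3L, 8413012 to 8414103, plus strand) encodes Matrimony, an inhibitor of Polo kinase that holds the oocyte in prophase and is needed for segregation of chromosomes without crossovers. It was listed at 0 in both tumor libraries, while control 1 and control 2 held 1295 and 1454 counts, and the fall was called (adjusted p = 0.0017, edgeR). No fold is given against a group listed at 0. Both targets that hold the whole of mtrm moved, in opposite directions. Exo70, a subunit of the exocyst, had 2138 and 2426 counts in tumor and 449 and 499 in control, a log2 fold change of 2.20 ± 0.18 (adjusted p = 0.0029, edgeR). Oseg1, an intraflagellar transport gene, had 327 and 410 in tumor and 1351 and 1470 in control, a log2 fold change of -2.0 ± 0.23 (adjusted p = 0.0057, edgeR).

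Together, mtrm, Exo70 and Oseg1 held 51.87 and 66.35 CPM in tumor, against 75.03 and 67.16 in control. Both tumor sums lay below both control sums, with little room between the groups. The full mtrm locus sum, which adds the target of CG32354, was higher in tumor by a log2 fold change of 0.81 ± 0.11 (adjusted p = 0.0027, edgeR). CG32354 itself had 3843 and 4052 counts in tumor and 284 and 370 in control. The own count and the locus sum of mtrm thus differed in direction.

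The cohesion genes were ord, solo and sunn, whose products act together to hold sister chromatids and build chromosome axes in Drosophila meiosis. The gene ord (FBgn0003009, 2R, 23271257 to 23275536, minus strand) had 1 and 0 counts in tumor, against 66 and 131 in control. The groups did not overlap, although the control libraries differed by 1.61 times in CPM. Pooled over libraries, the tumor level was 0.516% of the control level (exact 95% interval 0.013 to 2.91%, counting error only), and the fall was called (adjusted p = 0.0097, edgeR). The call ended without control 2 (adjusted p = 0.061, edgeR). The only other target that holds ord exons, CG13540, had 0 and 1 counts in tumor and 128 and 149 in control. The ord locus sum, 1 in each tumor library against 194 and 280 in control, was called lower too (adjusted p = 4.6e-04, edgeR) and stayed called without any single library.

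The gene solo (FBgn0283440, 2L, 15061656 to 15072133, plus strand) shares its first exons with vas, the gene of the germline RNA helicase Vasa, and 563 exon bases are common to both. Estimated counts of solo were 2316 and 2971 in tumor and 16321 and 19065 in control. Control held more in each library, with a log2 fold change of -2.81 ± 0.18, or 6.99-fold lower in tumor (adjusted p = 0.0021, edgeR). The solo target spans nearly all of vas as well, and vas had 182 and 592 counts in tumor against 4342 and 3348 in control. Summed, solo and vas held 52.6 and 83.4 CPM in tumor, against 501 and 440 in control.

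Another gene, vig, which encodes an RNA-binding protein, lies within the solo span on the opposite strand and shares no exon bases with it. All 3337 exon bases of solo nonetheless lie inside the vig target, as they do inside that of vas. Reads from any solo exon could therefore be given to solo, vas or vig. The vig target had 10872 and 8039 counts in tumor and was listed at 0 in both control libraries. Over solo, vas and vig the CPM were 281 and 271 in tumor, against 501 and 440 in control, which is also the solo locus sum, since TfIIS was listed at 0 in all libraries. That sum fell by 0.86 ± 0.09 on the log2 scale (adjusted p = 0.0013, edgeR). Under scaling to ribosomal protein genes the solo locus sum no longer passed (log2 fold change -0.22, edgeR adjusted p = 0.15). The size of the solo fall thus differed with the part of the locus counted, and reads of solo and vas from their common exons cannot be told apart.

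The gene sunn (FBgn0052088, 3L, 11728348 to 11732016, plus strand), whose product resembles the stromalin subunit of cohesin, had very few counts. It was listed at 0 in both tumor libraries and had 8 and 36 counts in control, below the filter. With no filter it did not pass (adjusted p = 0.061, edgeR). Its locus sum held 1508 and 1383 counts in tumor and 2775 and 3088 in control and fell by 1.09 ± 0.13 on the log2 scale (adjusted p = 0.0021, edgeR). Most of that sum was the target of Bmcp, a mitochondrial carrier gene, with 1494 and 1355 counts in tumor and 2541 and 2841 in control. The sunn locus sum did not pass under scaling to ribosomal protein genes (log2 fold change -0.45, edgeR adjusted p = 0.065).

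The synaptonemal complex genes were c(2)M and c(3)G. The gene c(2)M (FBgn0028525, 2L, 16303264 to 16305940, plus strand) encodes a kleisin-like protein of the lateral element. It had 428 and 450 counts in tumor, against 849 and 947 in control, and the groups did not overlap. Its log2 fold change was -1.10 ± 0.20 (adjusted p = 0.017, edgeR). This call ended without control 1 (adjusted p = 0.094, edgeR), without control 2 (0.073) and under scaling to ribosomal protein genes (0.19). CG5861, whose target holds 1860 of the 2262 exon bases of c(2)M, was listed at 0 in tumor and at 1392 and 1695 in control. Syx5, a syntaxin gene whose target holds 586 of them, had 5771 and 5233 counts in tumor and 2520 and 3210 in control. Over the c(2)M locus the sum had a log2 fold change of 0.16 ± 0.06 that did not pass (adjusted p = 0.094, edgeR). It passed under library totals (0.25, adjusted p = 0.035) and under scaling to ribosomal protein genes (0.80, adjusted p = 6.8e-04).

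The gene c(3)G (FBgn0000246, 3R, 15789473 to 15792579, minus strand), which encodes the transverse filament protein, was listed at 0 in all 4 libraries. All its exon sequence lies within targets of nsl1, Acyp2, CG9590 or Uros2. The locus sum was 10635 and 10907 counts in tumor and 11578 and 14165 in control, a fall of 0.32 ± 0.07 on the log2 scale (adjusted p = 0.016, edgeR). This locus call ended without control 1 (adjusted p = 0.075, edgeR) or control 2 (0.081), and under library totals (-0.22, adjusted p = 0.083). Under scaling to ribosomal protein genes the value was 0.33 (adjusted p = 0.063). The largest part of the sum was nsl1, with 8276 and 8671 counts in tumor and 8158 and 10349 in control, so the files give no level for c(3)G itself.

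**Figure D3:**
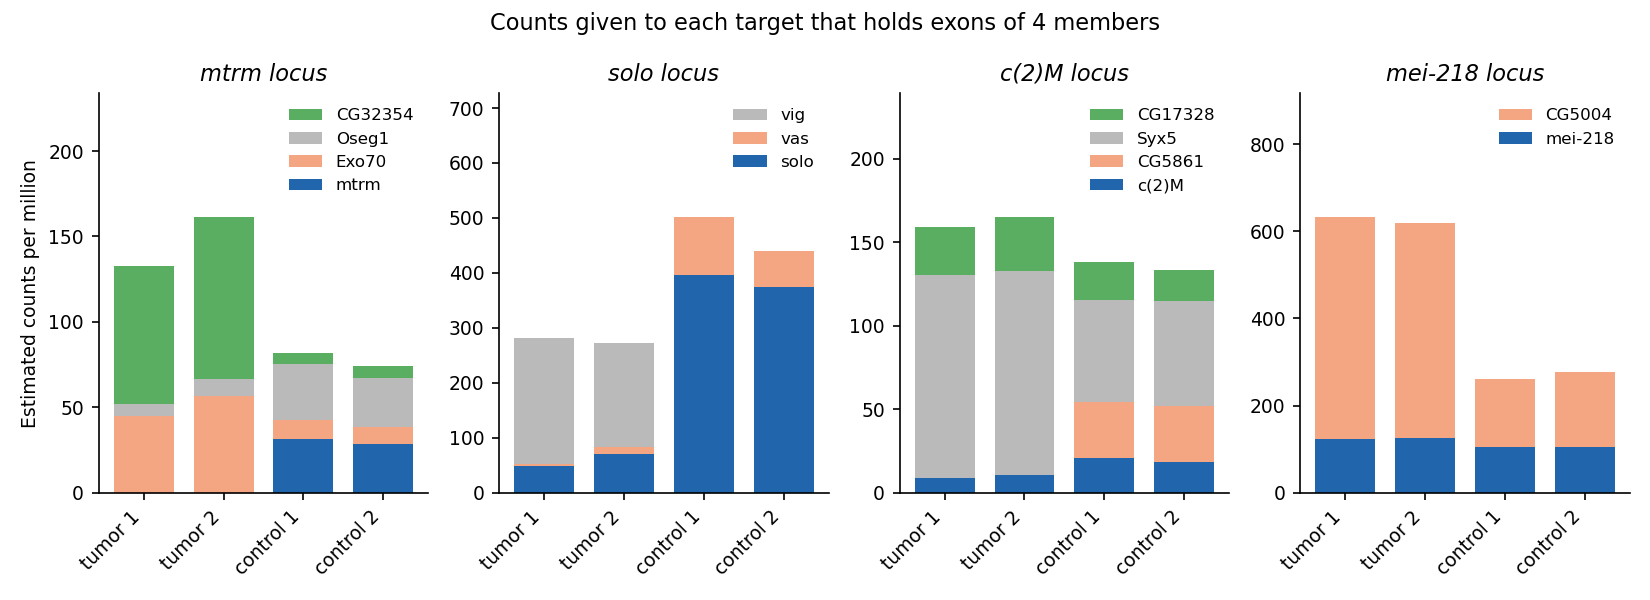
CPM given to each target in the mtrm, solo, c(2)M and mei-218 loci, stacked by target for the 2 tumor and 2 control libraries (targets listed at 0 in all libraries are left out). Blue, the member's own target, is absent for mtrm in tumor and takes 374 to 396 of 440 to 501 CPM at solo in control, where vig is listed at 0.

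The genes for making double-strand breaks, mei-W68 and mei-P22, gave no counts of their own. The gene mei-W68 (FBgn0002716, 2R, 19456170 to 19459523, plus strand) encodes the Drosophila Spo11 and lies within par-1, which encodes a polarity kinase and shares 806 exon bases with it. All of mei-W68 lies inside the par-1 target, which had 29845 and 25493 counts in tumor and 18692 and 25488 in control, a log2 fold change of 0.26 ± 0.11 that did not pass (adjusted p = 0.11, edgeR). The mei-W68 locus sum had a log2 fold change of 0.24 ± 0.09 (adjusted p = 0.08, edgeR). It passed under library totals (log2 fold change 0.34, edgeR adjusted p = 0.022) and under scaling to ribosomal protein genes (0.88, edgeR adjusted p = 4.9e-04).

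The gene mei-P22 (FBgn0016036, 3L, 7244388 to 7245383, plus strand), whose product works with Spo11 at break sites, lies inside the targets of Cdc27 and mRpL50. Cdc27, a subunit of the anaphase-promoting complex, had 3901 and 3867 counts in tumor and 3877 and 4674 in control (log2 fold change -0.21 ± 0.08, edgeR adjusted p = 0.098), and mRpL50 was listed at 0. The mei-P22 locus sum fell by 0.71 ± 0.11 on the log2 scale (adjusted p = 0.005, edgeR). Most of that difference was in Neos, with 4869 and 4810 counts in tumor and 9734 and 8736 in control. Under scaling to ribosomal protein genes the sum did not pass (log2 fold change -0.06, edgeR adjusted p = 0.73).

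The crossover gene mei-218 (FBgn0002709, X, 17135985 to 17142990, minus strand) encodes an MCM-related protein and is transcribed together with mei-217. Its counts were 5820 and 5325 in tumor, against 4326 and 5337 in control. These were 122.5 and 124.6 CPM in tumor and 104.9 and 104.7 in control, so the groups did not overlap. The log2 fold change of 0.14 ± 0.07 did not pass (adjusted p = 0.16, edgeR). On log2(TPM + 1) it did (0.38, limma adjusted p = 0.028), and under scaling to ribosomal protein genes it was 0.79 (adjusted p = 0.0055, edgeR). All 6 tested members had groups that did not overlap, as did 78.5% of all tested genes. In 5 of them both tumor libraries lay below both control libraries, as in 33.8% of all tested genes. Of these 5, mtrm and ord passed the filter through control alone, so their groups had to lie apart.

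The mei-218 target also holds exon sequence of 8 other genes. mei-217, which shares 5005 exon bases with mei-218, was listed at 0 in all libraries, and so was RpS5a, a ribosomal protein gene with 283 exon bases inside the mei-218 target. CG5004, the neighbour on the other strand, had 24210 and 21104 counts in tumor and 6476 and 8800 in control, a log2 fold change of 1.51 ± 0.10 (adjusted p = 0.0022, edgeR). The mei-218 locus sum was called higher, with a log2 fold change of 1.11 ± 0.08 (adjusted p = 5.5e-04, edgeR), and most of it was CG5004.

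**Figure D4:**
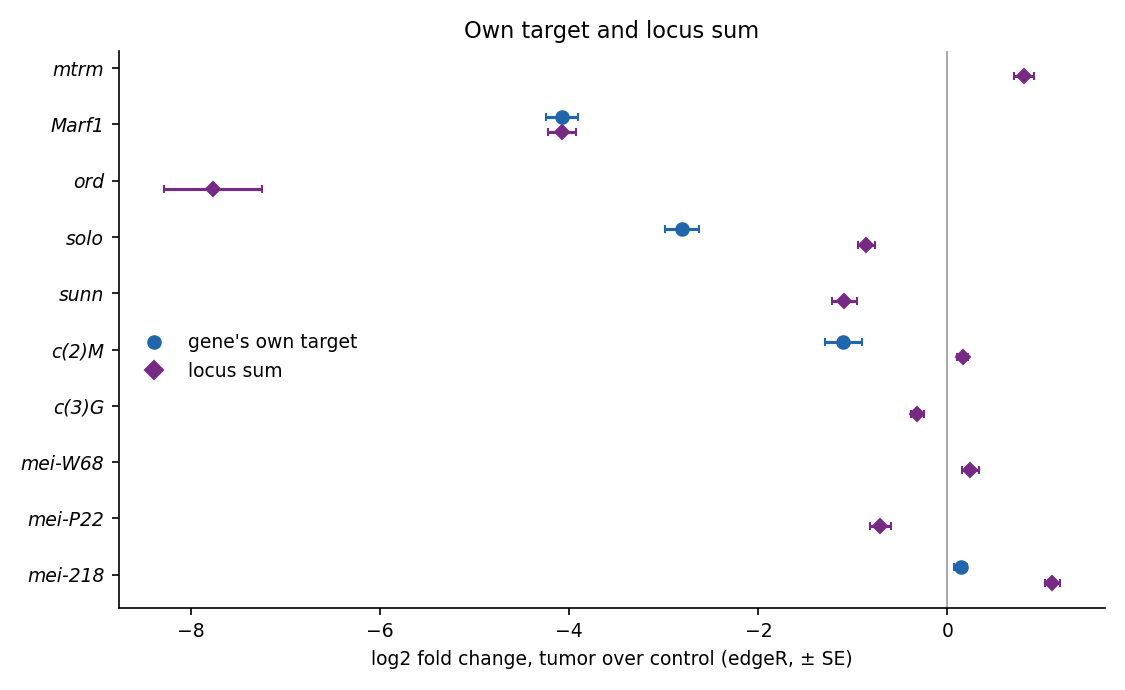
Log2 fold change of tumor over control with its SE for each gene's own target (blue circles, shown where both tumor libraries had counts) and for its locus sum (purple diamonds). Marf1 was at -4.08 on both measures, which for this gene are the same counts. The gene c(2)M was at -1.10 on its own target and 0.16 on the locus sum, and mei-218 at 0.14 and 1.11.

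On locus sums 6 of the 10 members were lower and 2 higher, against 27.4% lower, 27.9% higher and 55.3% called in all of 14670 sums. Both tumor sums lay below both control sums in CPM for 6 members and for 33.7% of all sums. Their median log2 fold change was -0.52, and that of all sums was 0.00. The falls on locus sums were those of Marf1, ord, solo, sunn, c(3)G and mei-P22, and the rises those of mtrm and mei-218. Marf1, ord and solo fell on both measures, which for Marf1 are the same counts. Of these, Marf1 and ord are the members with most exon sequence outside other targets. The Marf1 call held under the 5 other scalings tried on own counts and the 4 on locus sums. So did that of ord, which passed the filter through control alone on either measure and so had to differ.

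Levels per length were compared on the deposited TPM scale, whose lengths are those of whole targets. In tumor the order was mei-218 (80.2 ± 2.83 TPM), solo (29.2 ± 7.92), c(2)M (10.5 ± 1.39) and Marf1 (2.53 ± 0.59), with ord at 0.0179 and 0 TPM and the rest at 0 (SD, n = 2 libraries). In control it was solo (172 ± 6.45 TPM), mei-218 (61.5 ± 0.0597), mtrm (38.2 ± 2.5), Marf1 (36.0 ± 0.933), c(2)M (19.0 ± 1.34), ord (1.64 ± 0.542) and sunn (0.381 ± 0.311). In control, neighbours in this order did not overlap, except mtrm, at 36.5 and 40.0, and Marf1, at 35.3 and 36.6, whose ranges overlapped.

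Other genes of the pathway are given by list, with the calls under scaling to ribosomal protein genes, which moved the median of all tested genes to 0.67. Of the 2 other synaptonemal complex genes, corolla, for a central region protein, had 329 and 418 counts in tumor and 2064 and 1226 in control, a log2 fold change of -2.25 ± 0.42 (adjusted p = 0.018, edgeR). The corolla call ended without tumor 1, tumor 2 or control 1 (adjusted p up to 0.076), and its locus sum had a smaller log2 fold change, -0.52 ± 0.07 (adjusted p = 0.0025, edgeR). Its partner gene cona was not tested, with 0 and 1 counts in tumor and 0 in both control libraries, while its locus sum held 28 and 20 counts in tumor and 1508 and 1901 in control.

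Among 13 genes of the cohesin ring shared with mitosis and of its regulators, 10 were tested, 3 rose and 2 fell, with a median log2 fold change of -0.03. Under ribosomal protein scaling 5 rose and 1 fell (median 0.62), and on locus sums 4 rose and 4 fell. Nipped-B, the cohesin loader, had 21078 and 22448 counts in tumor and 6107 and 7916 in control, and rose by 1.57 ± 0.11 (adjusted p = 0.0022, edgeR). The kleisin gene vtd rose by 0.77 ± 0.11 (adjusted p = 0.0097, edgeR), a call that ended without control 1 (0.062). The gene mei-S332, the fly shugoshin that guards centromere cohesion, was listed at 0 in tumor and had 268 and 394 counts in control, so it passed the filter through control alone, while its locus sum rose by 0.58 (adjusted p = 0.0055). For wapl, the cohesin release gene, the log2 fold change was -0.41 ± 0.07 (adjusted p = 0.015, edgeR), 0.25 under scaling to ribosomal protein genes, and the call ended without any 1 of the libraries.

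Of 12 other break and crossover genes 7 were tested, of which 1 rose and 1 fell, with a median of -0.25. Under ribosomal protein scaling 3 rose and none fell (median 0.40), and on locus sums 1 rose and 5 fell. The nuclease scaffold gene mus312 rose by 1.13 ± 0.20 (adjusted p = 0.015, edgeR), but its locus sum fell by 0.63, and its call ended without control 1 or control 2 (adjusted p up to 0.08). The helicase gene Blm had a log2 fold change of -0.44 ± 0.12 (adjusted p = 0.041, edgeR), 0.21 under scaling to ribosomal protein genes, and its call ended without any 1 of the libraries. Trem, vilya, nenya, mei-217 and hdm were listed at 0 in all libraries.

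All 9 recombinational repair genes, which also serve dividing somatic cells, were tested, with a median log2 fold change of -0.07. Under ribosomal protein scaling 5 rose and none fell (median 0.58). In the reported fit 2 of the 9 rose and none fell, against 23.4% higher over all tested genes. Both that changed, mre11 and rad50, belong to the complex that processes broken DNA ends. The gene nbs, of the same complex, did not pass (log2 fold change -0.07, edgeR adjusted p = 0.64), and its groups overlapped. The counts of mre11 were 3609 and 3298 in tumor and 1460 and 1953 in control, a rise of 0.95 ± 0.11 (adjusted p = 0.006, edgeR). For rad50 the rise was 0.57 ± 0.10 (adjusted p = 0.014, edgeR) and ended without tumor 1, tumor 2 or control 1 (adjusted p up to 0.073).

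Of 13 meiotic division and spindle genes 10 were tested, of which 2 rose and 3 fell, with a median of 0.26. Under ribosomal protein scaling the balance turned over, with 6 higher and 1 lower (median 0.91). The Greatwall kinase gene gwl had 1192 and 1134 counts in tumor and 3161 and 3203 in control, a fall of 1.53 ± 0.14 (adjusted p = 0.004, edgeR), with a locus sum at -0.10 (adjusted p = 0.22). The checkpoint kinase gene Mps1 (0.53 ± 0.13, edgeR adjusted p = 0.031), Cks30A (0.89 ± 0.22, adjusted p = 0.036) and the meiotic Cdc20 gene cort (-0.79 ± 0.22, adjusted p = 0.047) each lost the call without at least 3 of the libraries in turn. Polo, the kinase that Matrimony inhibits, had 11422 and 13263 counts in tumor and 7884 and 10056 in control and is given as the partner of mtrm. Its log2 fold change of 0.40 ± 0.13 did not pass (adjusted p = 0.07, edgeR), while its locus sum was called higher (0.30 ± 0.10, edgeR adjusted p = 0.043).

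All 10 genes of egg activation and meiotic entry were tested, of which 1 rose and 5 fell, with a median of -0.36. Under ribosomal protein scaling 3 rose and 3 fell (median 0.24), and plu and mei-P26, 2 of the 5 falls, were at 0.04 and 0.21. On locus sums 2 rose and 6 fell. The poly(A) polymerase gene wisp had 624 and 439 counts in tumor and 5900 and 6846 in control, a fall of 3.66 ± 0.18 (adjusted p = 0.0015, edgeR), with a locus sum at -0.86. The gene bam, which starts cyst differentiation, fell by 4.61 ± 0.34 (adjusted p = 0.0025, edgeR), with a locus sum at -0.62. The kinase gene png was listed at 0 in tumor and at 1686 and 2574 in control, so it passed the filter through control alone. The calcineurin regulator gene sra rose by 3.27 ± 0.52 (adjusted p = 0.012, edgeR), a call that ended without control 1 or control 2 (adjusted p up to 0.076). The nanos gene, a target of Marf1, had 3710 and 3531 counts in tumor and 3669 and 3719 in control (log2 fold change -0.11, adjusted p = 0.49, edgeR). Its locus sum, 4169 and 4116 in tumor and 7488 and 7304 in control, was called lower (-0.92 ± 0.12, adjusted p = 0.0028).

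**Figure D5:**
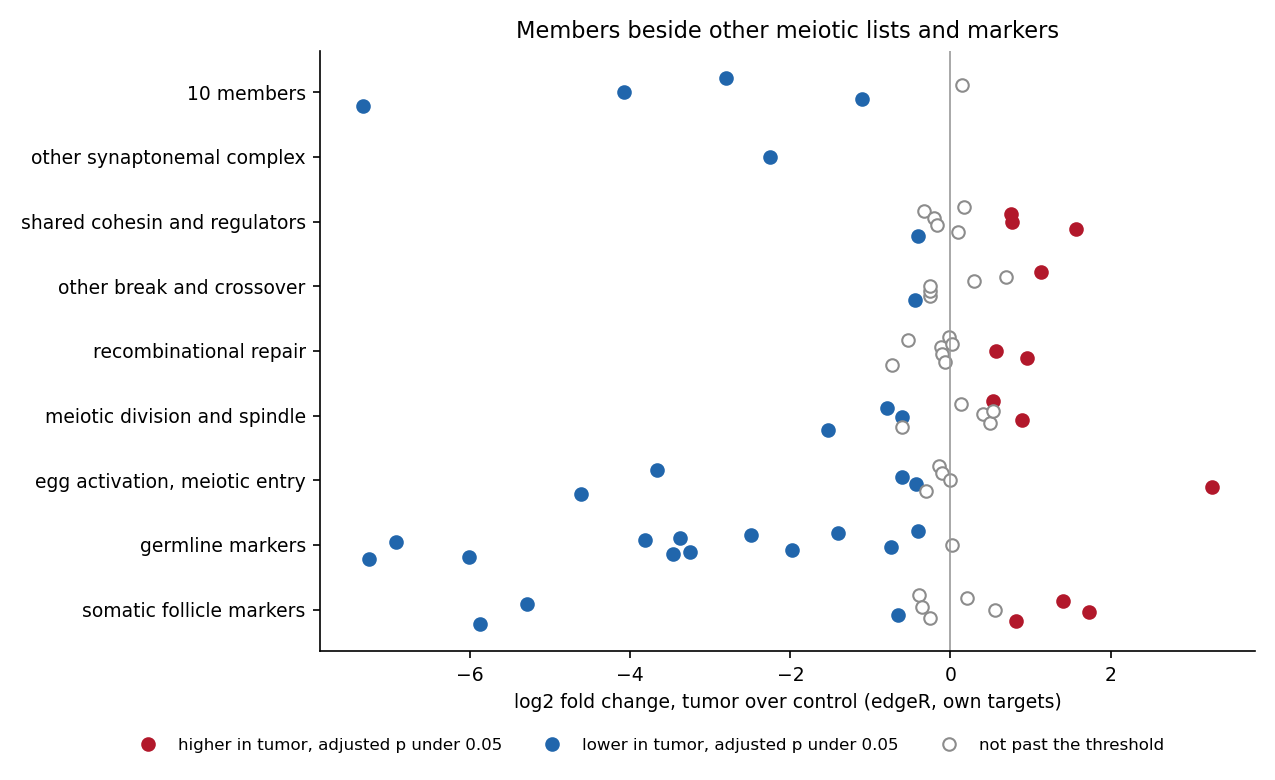
Log2 fold change of tumor over control on the genes' own targets for tested genes of each list, filled where the adjusted p is under 0.05 (blue lower, red higher). mtrm, mei-S332, png and osk, listed at 0 in tumor, are not drawn, and ord, with 1 and 0 tumor counts, is drawn at a fitted value of -7.34 that depends on the prior count. The members and the germline markers lie mostly left of 0, while the shared cohesin and repair lists lie around it.

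Markers moved as well. Of 14 germline markers, all tested, 13 fell and none rose, with a median log2 fold change of -3.32, against -3.44 over the 6 tested members. The member median includes mtrm and ord, and the marker median osk and otu, all of which passed the filter through control alone. How close these medians lie was thus partly fixed by the filter. On locus sums the medians lay further apart, at -1.53 over the markers (12 lower, none higher) and -0.52 over the 10 members, and vas is both a marker and part of the solo locus. Their summed level was 453 and 503 CPM in tumor, against 1555 and 1510 in control, and osk was listed at 0 in tumor. Much of the tumor sum came from the markers that differed least. Of these, gus, the marker not called, had 98.7 and 107.8 CPM in tumor and 91.2 and 99.0 in control, and spn-E had 147.5 and 162.7 in tumor and 241.9 and 241.7 in control. Other germline genes kept counts in tumor. Of these, ovo had 550 and 455 there and 4643 and 4398 in control, krimp 200 and 248 against 2080 and 2654, and egl 2593 and 2563 against 5787 and 7306. The gene otu had few, 7 and 14 in tumor against 1524 and 1574 in control, too few in tumor to pass the filter there. Under scaling to ribosomal protein genes 11 germline markers were called lower and 1 higher, and the log2 fold change of BicD, -0.40 in the reported fit, was 0.25. Of 11 follicle markers 3 rose and 3 fell, with summed levels of 2157 and 2457 CPM in tumor and 1862 and 2274 in control. Among them Fas3 and eya rose, by 1.41 ± 0.11 and 0.82 ± 0.11, and peb and upd1 fell, with log2 fold changes of -5.88 ± 0.17 and -5.29 ± 0.56 (edgeR adjusted p from 0.0011 to 0.0072). The eya call ended without control 1 (adjusted p = 0.055). The part of the germline share, or of other cell content, in the falls of the members was not tested.

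Of 7 tested hemocyte markers 5 rose and 1 fell (summed 508 and 768 CPM in tumor, 157 and 132 in control). Among the 5, NimC1 had 10 and 9 counts in control and passed the filter through tumor alone. Of 7 tested muscle sheath markers none rose and 2 fell (452 and 412 in tumor, 517 and 627 in control). Of 4 tested fat body markers 1 rose and 1 fell (25.6 and 35.5 in tumor, 827 and 831 in control, mostly Yp1, which follicle cells also make). The 1 that rose, Apoltp, had 1 and 4 counts in control and also passed the filter through tumor alone. Of 11 cell proliferation genes 1 rose and 6 fell (summed 1359 and 1713 CPM in tumor, 1786 and 1654 in control). Under ribosomal protein scaling the proliferation calls turned over, to 4 higher and 1 lower (median 0.13, against -0.52 in the reported fit). Under the same scaling 4 follicle markers were higher and 2 lower, 5 hemocyte markers higher and none lower, 1 muscle marker higher and none lower, and 2 fat body markers higher and 1 lower.

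By profile over the 4 libraries, the tested genes outside all lists nearest to the median member were CG32816, CG13685 and trh, with root mean square differences of 0.073, 0.105 and 0.121 on log2 CPM centred on each gene's mean. CG32816 had 61 and 79 counts in tumor and 765 and 881 in control, and its locus sum had a log2 fold change of 0.03.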

How the data were processed

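RNA-seq of 2 tumor and 2 control ovary libraries was used, with groups and replicate numbers from the sample titles. The authors quantified reads with kallisto, per the submitters' processing notes, and for its version, genome build and strand setting the sources used here have no entry. Target length, effective length, an estimated count and TPM stand beside each gene, per the file headers. A deposited estimated count can be fractional because reads are divided among targets, and TPM as deposited is that count scaled by effective length. Symbols matched 17668 of 17773 identifiers, and no column went unused. Coordinates are from Ensembl release 115 for BDGP6.54, whose gene spans match 17551 target lengths after adding flanks.

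After rounding, estimated counts went through edgeR 4.0.16 under R 4.3.3 (filterByExpr, TMM, glmQLFit, glmQLFTest, group alone, two-sided, Benjamini-Hochberg over all tested genes, threshold 0.05). Locus sums kept the same library sizes and factors. With 2 residual degrees of freedom the spread is borrowed across genes. Replicates differed beyond sampling noise (chi-square per degree of freedom 131 in tumor, 90.9 in control), and log2 CPM correlated at 0.959 or more within groups and at most 0.747 between them. The steps were tested on simulated counts. Alternatives used DESeq2 1.42.0, limma 3.58.1, other scalings, filters and thresholds, and left out each library. Intervals came from scipy 1.17.1.

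The members and lists were chosen with earlier results of these data known, and the further alternatives on locus sums were added after the data were seen. Named are all members, genes whose targets share exons with a member, in each list up to 4 called genes, taken by smallest adjusted p (counts alone for muscle, hemocyte, fat body and proliferation lists), and the 3 nearest profiles. polo, nanos, cona, nbs, osk, BicD, gus, spn-E, plu, mei-P26, NimC1, Apoltp, Yp1 and the genes listed at 0 were named after their values were seen.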

Additional observations from a re-analysis of the deposited data

How the results depend on the processing

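Marf1 and solo kept direction and call under all 18 alternatives to the reported fit. For mtrm the locus sum had the opposite sign (0.81), and the other 17 alternatives kept the call. For ord the fitted value ranged from -9.60 to -6.53 without 1 library (adjusted p 0.024 to 0.061). These values depend on the prior count and are no measured fold, and at -9.60, without tumor 1, the tumor library left is listed at 0. That of c(2)M ranged from -1.19 to -1.03 without 1 library and lost its call on ribosomal protein scaling (-0.45) and with a replicate block (-1.10, adjusted p = 0.052), and was 0.16 on the locus sum. mei-218 passed on ribosomal protein scaling (0.79), on log2(TPM + 1) and log2(TPM + 0.1) (0.38 each), on log2(TPM + 5) (0.36) and on the locus sum (1.11). The c(3)G locus sum turned to 0.33 on ribosomal protein scaling. In each case the cause was not tested.

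The number of members called was 3 to 5 without 1 library and 8 on locus sums. Calls over the other meiotic lists numbered 21 (9 higher, 12 lower), with 7 to 15 without 1 library and 32 on locus sums (11 higher, 21 lower). On ribosomal protein scaling they numbered 28 and the balance reversed (22 higher, 6 lower), and on the TPM scale 13 or 14 were higher and 6 lower. Over all genes 4191 were called, with 1855 to 2992 without 1 library, 8118 on locus sums and 1843 at an adjusted p under 0.01. Scaling to ribosomal protein genes moved the median of all genes to 0.67, library totals to 0.12 and TPM to 0.13 to 0.25 (log2). Replicate differences correlated between the genotypes at -0.0147, so no shift shared by replicate number was seen. That value does not tell whether the samples were prepared in pairs. With the replicate block 2838 genes and 4 members were called. Where 1 library of a group remained, it was assumed to vary like the other group. Counting error is widest for sunn and ord, the members with the fewest counts above 0; why their counts are low was not tested.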
